A study of Mus musculus with 8 samples.

Results

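Cells keep their cholesterol within limits through a small set of sensing and transport genes, and 8 of these genes were followed here across an *Eftud2* knockdown (KD) in mouse embryonic stem cells (mESCs). The 8 genes are *Srebf1*, *Srebf2*, *Scap*, *Insig1*, *Insig2*, *Mylip*, *Stard4* and *Abca1*. They were taken by name, from a list of SREBPs, their sensors, LDL uptake, sterol transport and LXR-driven efflux, out of the 55385 genes of the deposited count table. No measured value entered that choice, although earlier results of these data were known when it was made. All 8 passed the filter on low counts.

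*Eftud2* encodes a GTPase of the U5 small nuclear ribonucleoprotein, a core part of the spliceosome, and the study asked how cell state changes when splicing is mildly impaired. R1 mESCs, a male mouse line with a genotype given as WT, were grown without feeder cells in N2B27 medium with 2i and Lif. Lentivirus made in HEK293FT cells carried shRNA1, which targets the 3′ untranslated region of *Eftud2*, shRNA2, which targets its coding sequence, or nt-shRNA, a hairpin without a target in these cells. All 8 libraries shared an infection of 2 days and a puromycin selection of 3 days, and poly(A) RNA was sequenced from biological replicates of each group, 3 for either *Eftud2* hairpin and 2 for nt-shRNA. Each KD group therefore rests on a single hairpin sequence and on a selected pool of cells, and both KD groups were set against the same 2 control libraries.

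SREBPs are transcription factors made as membrane proteins of the endoplasmic reticulum. When sterols are scarce, SCAP escorts them to the Golgi, where proteases free the part that enters the nucleus and turns on genes of cholesterol synthesis and LDL uptake. When sterols are plentiful, INSIG proteins hold SCAP in the endoplasmic reticulum. *Insig1* and *Srebf2* are themselves SREBP targets, so their transcripts are commonly read along with those of the biosynthetic enzymes. LXRs, nuclear receptors that bind oxysterols, act in the other direction and turn on exporters such as *Abca1* and the ubiquitin ligase gene *Mylip*.

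Sequence just upstream of a start site is shown for 4 of the genes, because 2 of them are textbook LXR targets and 2 fell together with the sterol enzymes. RefSeq promoter windows of GRCm38.p6, running from 250 bases before to 50 bases after each start, were at hand for 7 of the 8 genes (12 windows, among which those of *Scap* overlap). *Stard4* had no entry. Every window, on both strands, was searched for the spaced repeat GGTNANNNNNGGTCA, which was written down from the known LXR element of *Abca1*, so that its presence there is no finding. It occurred in 68 of 32851 windows (0.207%), and among the 12 windows in those of *Abca1* and of the innermost of 3 *Srebf1* starts. Capitals mark the repeat, which reads as its reverse complement on the strand of the gene and begins 67 bases before the start of *Abca1* (chr4:53159908-53160002, minus strand) and 182 bases before that of *Srebf1* (chr11:60210599-60210693, minus strand).
Abca1: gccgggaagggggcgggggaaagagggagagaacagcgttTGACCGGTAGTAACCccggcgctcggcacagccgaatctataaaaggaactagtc
Srebf1: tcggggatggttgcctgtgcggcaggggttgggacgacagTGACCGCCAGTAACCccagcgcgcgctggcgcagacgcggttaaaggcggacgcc

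In the *Srebf2* window (chr15:82147019-82147268, plus strand) and the *Insig1* window (chr5:28071162-28071411, plus strand), capitals mark the CCAAT box, the GC box GGGCGG, the E-box CACGTG and the run ATCACNCCA, each on either strand. In the GENCODE annotation used for counting, both genes begin inside these stretches, upstream of the RefSeq starts used here. That run is a sterol regulatory element (SRE) without its final base. The 10-letter form ATCACNCCAC was found in 77 of 32851 windows (0.234%) and in none of the 12, which says only that these letters are not in these windows. It was shortened after the sequences had been seen. The 9-letter form occurred in 285 windows (0.868%), among them that of *Srebf2*, 163 bases before the start.
Srebf2: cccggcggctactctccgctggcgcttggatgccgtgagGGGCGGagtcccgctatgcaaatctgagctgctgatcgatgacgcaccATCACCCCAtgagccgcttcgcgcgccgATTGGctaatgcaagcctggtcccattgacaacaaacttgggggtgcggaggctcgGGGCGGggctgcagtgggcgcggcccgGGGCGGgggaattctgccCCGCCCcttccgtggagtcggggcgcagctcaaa
Insig1: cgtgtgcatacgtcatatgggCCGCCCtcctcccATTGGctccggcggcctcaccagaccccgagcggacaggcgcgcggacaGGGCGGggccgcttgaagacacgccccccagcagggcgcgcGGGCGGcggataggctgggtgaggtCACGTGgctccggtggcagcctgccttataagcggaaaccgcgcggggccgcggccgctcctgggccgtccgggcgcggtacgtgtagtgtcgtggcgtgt
The CCAAT box, which NF-Y binds, was in 6 of the 12 windows and in 37.4% of all windows. The GC box, which Sp1 binds, was in 10 of the 12 and in 35.7% of all, and the E-box in 4 of the 12 and in 7.15% of all. These matches describe the letters and are not evidence of binding.

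Total counts per library ran from 19569525 to 29871048, and the 2 nt-shRNA libraries were the deepest. The smallest count of any of the 8 genes in any library was 355. Levels below are normalized counts (CPM, scaled to library size) with TMM factors, and a gene was called when its Benjamini-Hochberg adjusted p in edgeR's quasi-likelihood test over 17445 genes was under 0.05. *Eftud2* itself was at 262 and 256 CPM with nt-shRNA, at 232, 229 and 225 CPM with shRNA1, and at 198, 202 and 235 CPM with shRNA2. All 6 KD libraries were below both controls, but replicate 3 of shRNA2 was above all 3 shRNA1 libraries. The log2 fold change was -0.18 with shRNA1 (adjusted p = 0.0514, edgeR), which was not called, and -0.29 with shRNA2 (adjusted p = 0.00122, edgeR). In the counts these are falls of 11.7% and 18.3%. The paper reports larger losses by qPCR, normalized to mitochondrial rRNA, and less EFTUD2 protein by western blot. The shRNA1 change was called with the replicate block (-0.21, adjusted p = 0.0206, edgeR), without the filter, with only the groups compared, and, at an unchanged -0.18, without shRNA2 replicate 2 (adjusted p = 0.0383, edgeR) or replicate 3 (adjusted p = 0.0206, edgeR).

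Summed over 7 embryonic stem cell markers, levels were 4190 to 4270 CPM with nt-shRNA, 4640 to 4780 CPM with shRNA1 and 5530 to 5690 CPM with shRNA2. *Nanog* accounted for much of this, at 892 and 932 CPM in the controls and between 1290 and 1590 CPM in the KD libraries, whereas *Pou5f1* was at 760 and 788 CPM in the controls and between 587 and 675 CPM in the KD libraries. Markers of fibroblasts or feeder cells summed to between 7.87 and 11.2 CPM in every library, with *Col3a1* at 0 in 6 of the 8, and those of mesoderm to between 19.3 and 26.0 CPM. Primitive endoderm markers summed to 23.1 and 23.5 CPM with nt-shRNA, 21.6 to 25.7 CPM with shRNA1 and 17.1 to 19.1 CPM with shRNA2. Neural markers summed to between 5.77 and 8.32 CPM, with *Neurog2* at 0 in 5 libraries. The stem cell sum moved with the hairpins in the same order as several of the genes described below, and its part in their changes was not tested. In bulk RNA, fewer cells of a type and less RNA per cell cannot be told apart.

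Of the 8 genes, 4 were lower and 1 was higher with shRNA1, and 3 were not called. Across all tested genes 30.9% were called in that comparison, 17.1% lower and 13.8% higher. With shRNA2, 5 were lower, 2 were higher and 1 was not called, against 55.9% of all genes called, 28.7% lower and 27.2% higher. The median log2 fold change of the 8 was -0.26 with shRNA1 and -0.64 with shRNA2, and the medians over all tested genes were -0.00688 and 0.00396. The libraries of the KD group and the controls did not overlap for 5 of the 8 genes with shRNA1 and for 8 of 8 with shRNA2, where the shares of all tested genes were 56.8% and 71.4%. The 5 of 8 with shRNA1 is thus near that background share. Without nt-shRNA replicate 1 the number of all genes called with shRNA1 went from 5388 to 2948, and without nt-shRNA replicate 2 to 3579, while 5 of the 8 were called in either fit.

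**Figure D1:**
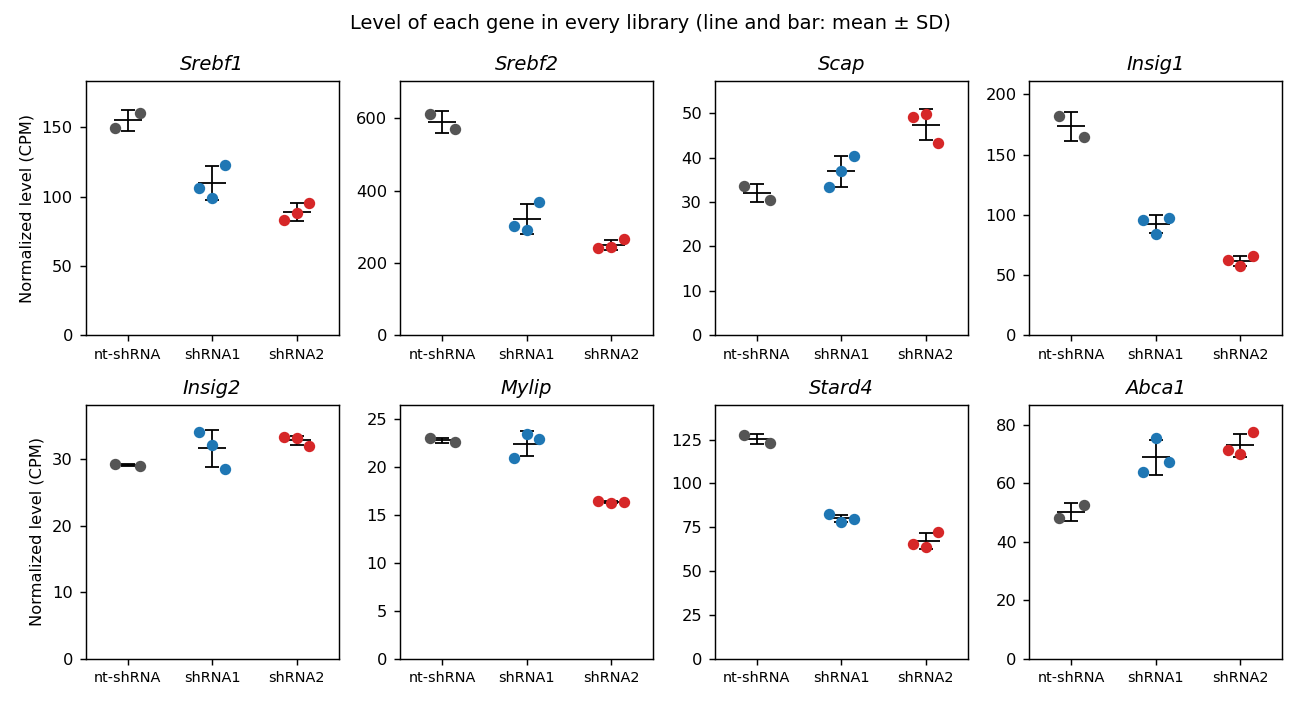
TMM-normalized level in CPM (vertical axis, from 0, one scale per gene) of the 8 genes in each nt-shRNA (grey, n = 2), shRNA1 (blue, n = 3) and shRNA2 (red, n = 3) library, with the mean and SD as a line and bar. *Srebf1*, *Srebf2*, *Insig1* and *Stard4* descend from nt-shRNA through shRNA1 to shRNA2, *Abca1* lies higher in both KD groups, and *Mylip* is lower with shRNA2 at 16.3 to 16.5 CPM.

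Both SREBP genes were lower with either hairpin, *Srebf2* more so than *Srebf1*. *Srebf2* (ENSMUSG00000022463, chromosome 15, 82147181 to 82205379, plus strand) encodes SREBP-2, the family member that mainly drives cholesterol synthesis. It stood at 611 and 569 CPM with nt-shRNA, at 303, 291 and 367 CPM with shRNA1, and at 241, 243 and 265 CPM with shRNA2. No library of any group overlapped another group, and shRNA1 replicate 3 was the KD library closest to the controls. The level fell by 45.6% with shRNA1 (log2 fold change -0.88, 95% interval -1.05 to -0.71, adjusted p = 2.8e-07, edgeR) and fell by 57.7% with shRNA2 (log2 fold change -1.24, interval -1.41 to -1.07, adjusted p = 5.1e-10, edgeR).

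*Srebf1* (ENSMUSG00000020538, chromosome 11, 60199089 to 60222581, minus strand) encodes SREBP-1, made as the 1a and 1c forms and tied more closely to fatty acid synthesis. Gene counts pool both forms. Its levels were 150 and 160 CPM with nt-shRNA, 106, 99.0 and 123 CPM with shRNA1, and 82.9, 88.0 and 95.4 CPM with shRNA2. Again the 3 groups did not overlap. The log2 fold changes were -0.50 with shRNA1 (interval -0.67 to -0.33, adjusted p = 1.0e-04, edgeR) and -0.80 with shRNA2 (interval -0.97 to -0.64, adjusted p = 9.4e-08, edgeR). Of its exonic bases 3.11% are shared with other genes, *Rai1* on the opposite strand and *Mir6922* on the same strand. With offsets for GC content, an alternative added after the data were seen, the changes were smaller for both genes, at -0.37 and -0.61 for *Srebf1* and at -0.75 and -1.05 for *Srebf2*, and all were still called.

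Within each library the *Srebf1* to *Srebf2* ratio, taken per length of gene and so free of scaling between libraries, was 0.335 on average with nt-shRNA, 0.436 with shRNA1 and 0.453 with shRNA2. On the log2 scale it was -1.68 and -1.48 in the 2 controls, between -1.23 and -1.16 with shRNA1, and between -1.19 and -1.11 with shRNA2. *Srebf2* was thus the more abundant transcript in all 8 libraries, by a smaller margin in every KD library than in either control. The log2 ratio rose by 0.38 ± 0.0367 (SD, n = 3, of the shRNA1 libraries) and 0.43 ± 0.0421 (SD, n = 3, of the shRNA2 libraries), beside an SD of 0.145 between the 2 controls, and no test was made of it.

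*Scap* differed from the factors it escorts, being higher with shRNA2. The gene (ENSMUSG00000032485, chromosome 9, 110333288 to 110384950, plus strand) encodes the sterol sensor that carries SREBPs to the Golgi. Its levels were 33.5 and 30.5 CPM with nt-shRNA, 33.4, 37.0 and 40.3 CPM with shRNA1, and 49.2, 49.8 and 43.4 CPM with shRNA2. All shRNA2 libraries were above all others, while shRNA1 replicate 1 lay between the controls. The log2 fold change was 0.57 with shRNA2 (interval 0.38 to 0.76, adjusted p = 2.6e-05, edgeR), a level 48.3% above the controls. With shRNA1 it was 0.21 (interval 0.02 to 0.40, adjusted p = 0.0861, edgeR), which was not called, but 6 of 17 alternatives called it, among them GC content offsets (0.34, adjusted p = 0.00224, edgeR) and the fit without shRNA1 replicate 1 (0.27, adjusted p = 0.0399, edgeR). A share of 13.2% of its exonic bases lies in 5830462I19Rik on the opposite strand, and counting without strand cannot tell reads of the 2 genes apart there.

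The pair of retention genes parted, with *Insig1* lower under both hairpins and *Insig2* not called. *Insig1* (ENSMUSG00000045294, chromosome 5, 28071363 to 28078662, plus strand) encodes the form that SREBPs themselves induce. It was at 182 and 165 CPM with nt-shRNA, at 95.5, 84.2 and 97.7 CPM with shRNA1, and at 62.3, 57.5 and 65.8 CPM with shRNA2. The 3 groups were well apart, and the highest shRNA2 library was below the lowest shRNA1 library. *Insig1* fell by 46.6% with shRNA1 (log2 fold change -0.91, interval -1.06 to -0.75, adjusted p = 7.8e-08, edgeR) and fell by 64.3% with shRNA2 (log2 fold change -1.49, interval -1.64 to -1.33, adjusted p = 3.6e-11, edgeR). With shRNA1 its change was close to that of *Srebf2*, and which of these genes was lower turned with the replicate block (-0.96 for *Srebf2* and -0.95 for *Insig1*).

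*Insig2* (ENSMUSG00000003721, chromosome 1, 121304353 to 121332589, minus strand), whose product holds SCAP in the same way but which is not known as a main SREBP target, was at 29.3 and 29.0 CPM with nt-shRNA. It was at 34.2, 32.1 and 28.6 CPM with shRNA1 and at 33.3, 33.2 and 32.1 CPM with shRNA2. Replicate 3 of shRNA1 was below both controls, and all 3 shRNA2 libraries were above them by a few CPM. The log2 fold changes were 0.12 with shRNA1 (interval -0.06 to 0.29, adjusted p = 0.32, edgeR) and 0.17 with shRNA2 (upper bound 0.35, lower bound just under 0, adjusted p = 0.09, edgeR). For shRNA2, 3 of 17 alternatives called it, among them the replicate block (0.22, adjusted p = 0.0301, edgeR). Another was the fit without shRNA1 replicate 3, whose adjusted p was 0.0498 (edgeR) at the same log2 fold change of 0.17.

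Because the genes moved apart, the *Insig1* to *Insig2* ratio per length within a library fell in steps. The log2 ratio was 2.80 and 2.67 with nt-shRNA, 1.65, 1.56 and 1.94 with shRNA1, and 1.07, 0.96 and 1.20 with shRNA2. In linear terms *Insig1* was 6.67 times as abundant as *Insig2* with nt-shRNA, 3.28 times with shRNA1 and 2.11 times with shRNA2. The differences from nt-shRNA, -1.02 and -1.66 on the log2 scale, exceeded the SDs of 0.0911 (nt-shRNA, n = 2), 0.199 (shRNA1, n = 3) and 0.121 (shRNA2, n = 3), and no test was made of them.

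**Figure D2:**
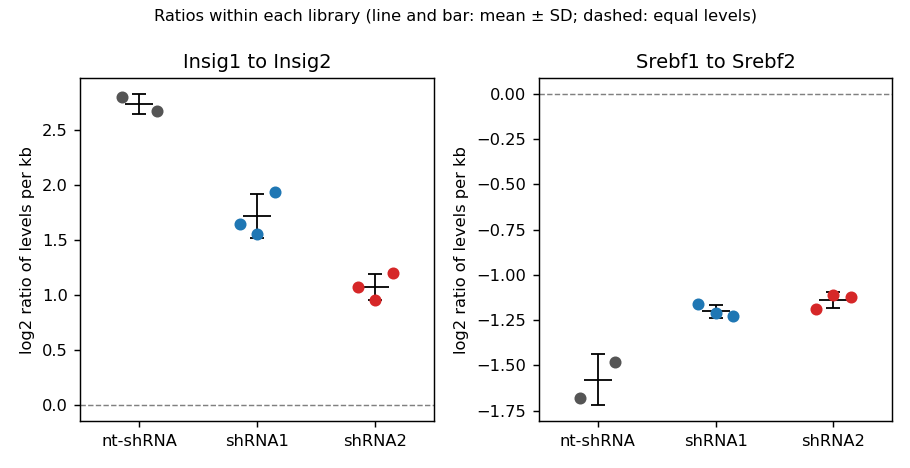
Log2 ratio of levels per kb (vertical axes) of *Insig1* to *Insig2* (left) and of *Srebf1* to *Srebf2* (right) within each library, grouped by hairpin, with mean and SD as line and bar and a dashed line at equal levels. The *Insig* ratio descends from a mean of 2.74 to 1.08, and the *Srebf* ratio lies between -1.23 and -1.11 in all KD libraries and at -1.68 and -1.48 in the controls.

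Among genes of cholesterol uptake, *Mylip* was lower with shRNA2 and was not called with shRNA1. *Mylip* (ENSMUSG00000038175, chromosome 13, 45389742 to 45412022, plus strand) encodes IDOL, an LXR-induced ubiquitin ligase that limits LDL uptake. Its levels were 23.0 and 22.6 CPM with nt-shRNA, 20.97, 23.4 and 22.9 CPM with shRNA1, and 16.5, 16.3 and 16.3 CPM with shRNA2. The shRNA1 libraries spanned the controls, and the shRNA2 libraries were close together below all others. The log2 fold change was -0.02 with shRNA1 (interval -0.21 to 0.16, adjusted p = 0.877, edgeR), a value that was 0.02 without shRNA1 replicate 1. It was -0.48 with shRNA2 (interval -0.66 to -0.29, adjusted p = 1.8e-04, edgeR), and the difference between the hairpins was itself called (log2 fold change -0.45, adjusted p = 3.5e-04, edgeR).

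Of 12 genes of LDL uptake and release of cholesterol from lysosomes, 9 were lower and none was higher with shRNA1, and 10 were lower and none was higher with shRNA2, with medians of -0.43 and -0.86, where 17.1% and 28.7% of all tested genes were lower. *Npc2*, a lysosomal cholesterol carrier, had log2 fold changes of -0.56 and -0.81, and *Scarb1*, the HDL receptor gene, of -0.62 and -0.91.

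*Stard4*, the sterol shuttle of the set, was lower with both hairpins. The gene (ENSMUSG00000024378) encodes a soluble protein that moves cholesterol between membranes and is a known SREBP-2 target. Its levels were 127 and 123 CPM with nt-shRNA, 82.3, 78.1 and 79.8 CPM with shRNA1, and 65.7, 63.5 and 72.2 CPM with shRNA2. The 3 groups did not overlap, and libraries of one group were within 9 CPM of each other. *Stard4* fell by 36.1% with shRNA1 (log2 fold change -0.65, interval -0.78 to -0.51, adjusted p = 8.0e-07, edgeR) and fell by 46.4% with shRNA2 (log2 fold change -0.90, interval -1.04 to -0.76, adjusted p = 2.0e-09, edgeR).

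In the list of 12 other genes of sterol transport and esterification, 4 were lower and 2 higher with shRNA1, and 6 were lower and 1 higher with shRNA2. In all, 6 of the 12 were called with shRNA1 and 58.3% with shRNA2, beside 30.9% and 55.9% of all tested genes, so the shRNA2 share is near the background. *Soat1*, which encodes the enzyme that esterifies cholesterol for storage, had log2 fold changes of -0.31 (adjusted p = 0.00338, edgeR) and -0.62 (adjusted p = 9.1e-07, edgeR). *Nceh1*, a cholesteryl ester hydrolase gene, went the other way at 0.47 and 0.53. *Gramd1a*, which encodes a sterol carrier at membrane contact sites, was at -0.32 and -0.60, and the oxysterol-binding protein gene *Osbpl9* at -0.26 and -0.47. Without nt-shRNA replicate 1, *Gramd1a* (-0.27, adjusted p = 0.0503, edgeR) and *Osbpl9* (-0.23, adjusted p = 0.0651, edgeR) were no longer called with shRNA1. Scaled by library size alone, *Soat1* (-0.19, adjusted p = 0.057, edgeR) and *Osbpl9* (-0.15, adjusted p = 0.0875, edgeR) were not called with shRNA1.

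*Abca1* was the only one of the 8 genes called higher with both hairpins. The gene (ENSMUSG00000015243, chromosome 4, 53030787 to 53159895, minus strand) encodes the transporter that passes cholesterol and phospholipid to apolipoprotein A-I, the first step of HDL formation. It was at 47.9 and 52.4 CPM with nt-shRNA, at 63.8, 75.6 and 67.1 CPM with shRNA1, and at 71.4, 69.9 and 77.4 CPM with shRNA2. All KD libraries were above both controls, and the 2 KD groups overlapped. The log2 fold changes were 0.46 with shRNA1 (interval 0.29 to 0.62, adjusted p = 2.6e-04, edgeR) and 0.54 with shRNA2 (interval 0.37 to 0.71, adjusted p = 1.2e-05, edgeR), levels 37.1% and 45.3% above the controls.

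No other LXR target of the list, the factors themselves apart, was called higher. *Abcg1*, which encodes a partner exporter that loads HDL, was at 47.6 and 47.5 CPM in the controls, between 29.2 and 34.4 CPM with shRNA1, and between 15.4 and 19.3 CPM with shRNA2, with log2 fold changes of -0.61 (adjusted p = 6.5e-05, edgeR) and -1.48 (adjusted p = 5.4e-10, edgeR). *Apoe*, an apolipoprotein gene, had log2 fold changes of -0.38 and -0.86, and without nt-shRNA replicate 1 the first was -0.30 and no longer called (adjusted p = 0.058, edgeR). *Mylip*, also a textbook LXR target, was lower with shRNA2, and *Srebf1*, whose innermost window shares the repeat of *Abca1* shown above, was lower with both. The counts of *Srebf1* pool all its starts, so its fall cannot be assigned to the start with the repeat.

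Of the LXR factors, *Nr1h2* was near 79 CPM in every group, with log2 fold changes of 0.00 and -0.01, neither called (adjusted p = 0.987 and 0.943, edgeR). Its sign turned under several settings, and GC content offsets called it at 0.20 with shRNA2. *Nr1h3* was rare, at 0.561 CPM on average with nt-shRNA, 0.798 CPM with shRNA1 and 1.22 CPM with shRNA2, where its log2 fold change of 1.12 was called (adjusted p = 0.00351, edgeR). *Rxra*, which encodes a partner of LXRs, was higher with both (0.58 and 0.65). Over the 9 tested genes of the LXR list, 1 was higher and 3 lower with shRNA1, and 2 were higher and 3 lower with shRNA2. These are 44.4% and 55.6% of the list, beside 30.9% and 55.9% of all tested genes, so the shRNA2 share is near the background. *Rxrg*, *Abcg5* and *Abcg8* had at most 12 counts in any library and were not tested.

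**Figure D3:**
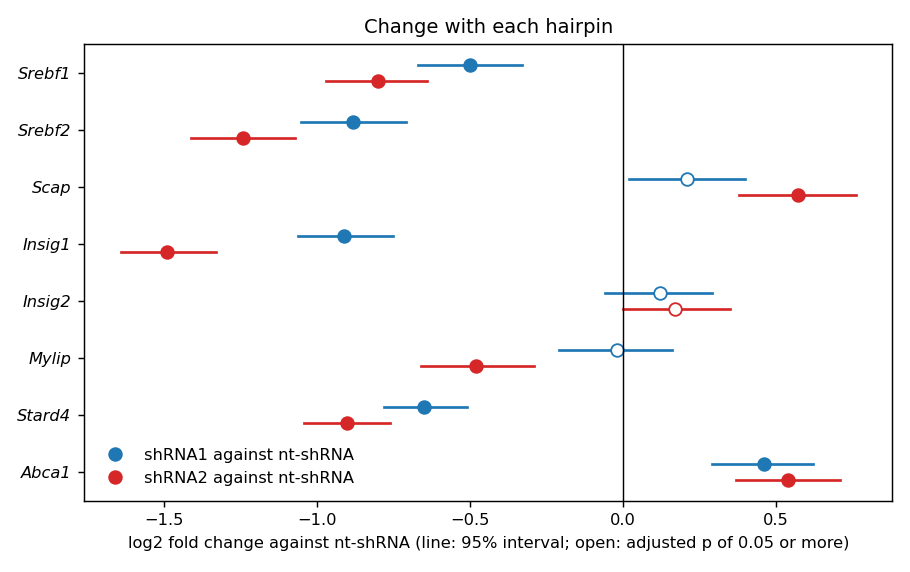
Log2 fold change against nt-shRNA (horizontal axis) of the 8 genes with shRNA1 (blue) and shRNA2 (red), with 95% intervals as lines and open points for an adjusted p of 0.05 or more. *Insig1* lies furthest to the left at -0.91 and -1.49, *Abca1* is to the right with both hairpins, and *Scap*, *Insig2* and *Mylip* with shRNA1 are open points.

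Both KDs were also compared with each other, to ask whether the 8 genes differed between the hairpins. With shRNA2, 5 of the 8 were lower than with shRNA1, 1 was higher and 2 were not called, against 35.6% of all genes called, 18.7% lower and 16.9% higher. The groups did not overlap for 6 of the 8 genes and for 47.8% of all tested genes. The median log2 fold change was -0.28, and -0.000817 over all tested genes. *Insig1* differed most (-0.58, interval -0.73 to -0.44, adjusted p = 7.2e-06, edgeR), and *Scap* was the higher one (0.36, interval 0.19 to 0.53, adjusted p = 0.00175, edgeR). *Abca1* (0.08, interval -0.06 to 0.23, adjusted p = 0.37, edgeR) and *Insig2* (0.06, interval -0.10 to 0.22, adjusted p = 0.59, edgeR) were not called, and their intervals allow differences of up to 0.23 and 0.22. The sign for *Insig2* was negative, at -0.01, without shRNA1 replicate 3. *Eftud2* itself was not called between the hairpins (-0.11, interval -0.24 to 0.02, adjusted p = 0.164, edgeR), but was without shRNA2 replicate 3 (-0.19, adjusted p = 0.0127, edgeR).

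On a per-length scale, in CPM per kb of exon, *Srebf2* was the most abundant of the 8 transcripts in every group, at 82.1 ± 4.16 (SD, n = 2) with nt-shRNA and 34.8 ± 1.85 (SD, n = 3) with shRNA2. *Insig1* followed at 56.1 with nt-shRNA, 29.9 with shRNA1 and 20.0 with shRNA2, then *Srebf1* at 27.5, 19.4 and 15.8, and *Stard4* at 22.4, 14.3 and 12.0. *Insig2* came next at 8.40, 9.11 and 9.46. The order of the 3 lowest changed between groups. With nt-shRNA it was *Mylip* at 7.05, *Abca1* at 4.84 and *Scap* at 4.30. With shRNA1, *Mylip* (6.49 to 7.24) and *Abca1* (6.16 to 7.29) overlapped and *Scap* was lowest at 4.96. With shRNA2, *Abca1* (6.75 to 7.47) and *Scap* (5.83 to 6.70) adjoined and *Mylip* was lowest at 5.07.

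Which other genes had the most similar profile was read from log2 CPM centred on each gene's mean over the 8 libraries, by root mean square distance. The 2 genes nearest to *Insig1* were *Dhcr7*, which encodes the last enzyme of the Kandutsch-Russell branch of cholesterol synthesis (distance 0.0416), and *Cyp51*, the lanosterol demethylase gene (0.0487), against a root mean square of 0.582 for *Insig1* itself. *Srebf2* was nearest to *Dclk2* (0.0586) and *Thap3* (0.0713), and *Srebf1* to *Tkt* (0.0501), a transketolase gene, and *Lamtor2* (0.0524). *Stard4* was nearest to *Tmem256* (0.0465) and *Slc37a4* (0.0529), *Scap* to *Blcap* (0.0446) and *Celf5* (0.0516), and *Mylip* to *Slc27a2* (0.0367) and *Pqlc3* (0.046). *Abca1* was nearest to *Gdpgp1* (0.0599) and *Gm5113* (0.0644), and *Insig2*, whose own root mean square was 0.0941, to *Cul2* (0.0203) and *Dld* (0.0255). The 8 libraries fall into 3 groups, so these distances mostly compare 3 group levels and are given as a description.

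The genes on which SREBPs act, and those that handle SREBPs, were counted from lists. Of 20 genes of cholesterol synthesis, 18 were lower with shRNA1 and 17 with shRNA2, none was higher, and the medians were -0.67 and -0.85, where 17.1% and 28.7% of all tested genes were lower. *Cyp51* had log2 fold changes of -0.96 and -1.58, *Dhcr7* of -0.87 and -1.48, and *Hmgcs1*, the first dedicated enzyme gene of the pathway, of -0.79 and -1.08, so that with shRNA2 *Insig1* at -1.49 lay beside *Dhcr7*. *Hsd17b7*, a sterol ketoreductase gene, was not called (0.00, adjusted p = 0.996, and -0.06, adjusted p = 0.602, edgeR). Of 13 fatty acid genes, 6 were lower with shRNA1 and 7 with shRNA2, none was higher, and the medians were -0.22 and -0.51. The shares called, 46.2% and 53.8%, stand beside 30.9% and 55.9% of all tested genes, and the shares lower over all tested genes were 17.1% and 28.7%. The desaturase genes *Scd1* (-0.89 and -1.74), *Fads2* (-0.85 and -1.32) and *Fads1* (-0.80 and -1.23) were lower with both. So were *Scd2*, *Acly* and *Me1*, and *Acss2* was lower with shRNA2 alone. *Gpam*, an acyltransferase gene of glycerolipid synthesis, was not called (0.01, adjusted p = 0.951, and 0.07, adjusted p = 0.418, edgeR). Neither hairpin gave a call for the synthase gene *Fasn* (-0.17, adjusted p = 0.0501, and -0.07, adjusted p = 0.351, edgeR). The same held for the carboxylase genes *Acaca* and *Acacb* and the elongase genes *Elovl5* and *Elovl6*.

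Of 10 tested genes that activate, retain or degrade SREBPs, besides the 8, 3 were lower and 1 higher with shRNA1, and 2 were lower and 4 higher with shRNA2. That makes 4 and 6 of the 10 called, beside 30.9% and 55.9% of all tested genes. *Fbxw7*, which encodes the ubiquitin ligase subunit that marks nuclear SREBPs for degradation, was at 26.7 ± 0.864 CPM in the controls (SD, n = 2). It reached 44.5 ± 1.54 CPM with shRNA1 and 74.5 ± 11.8 CPM with shRNA2 (SD, n = 3 each). Its log2 fold changes were 0.73 (adjusted p = 3.2e-05, edgeR) and 1.48 (adjusted p = 1.3e-09, edgeR). *Ufd1*, which encodes a cofactor of degradation at the endoplasmic reticulum, was at 0.16 (adjusted p = 0.125, edgeR) and 0.48 (adjusted p = 4.1e-05, edgeR). With shRNA1 the replicate block (0.22, adjusted p = 0.0265, edgeR) and library size alone (0.28, adjusted p = 0.011, edgeR) called *Ufd1*.

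Of the genes that make or clear oxysterols, the LXR ligands, 3 of 5 were expressed enough to test. *Cyp7b1*, an oxysterol hydroxylase gene, was higher with both hairpins (log2 fold changes 1.38 and 1.70) from a control level of 0.544 CPM, *Cyp46a1* was lower with shRNA2 (-1.03, adjusted p = 0.00143, edgeR), and *Cyp27a1* was not called (0.30, adjusted p = 0.131, and 0.02, adjusted p = 0.916, edgeR). With shRNA1, library size alone (0.41, adjusted p = 0.0383, edgeR) and GC content offsets (0.37, adjusted p = 0.0435, edgeR) called *Cyp27a1*. For *Cyp46a1* the shRNA1 value was -0.35 and not called (adjusted p = 0.265, edgeR), but it was called with the replicate block (-0.62, adjusted p = 0.028, edgeR) and without shRNA1 replicate 3 (-0.72, adjusted p = 0.0126, edgeR), and leaving out each library in turn gave -0.72 to -0.18. *Ch25h* and *Cyp7a1* had at most 1 count in any library.

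**Figure D4:**
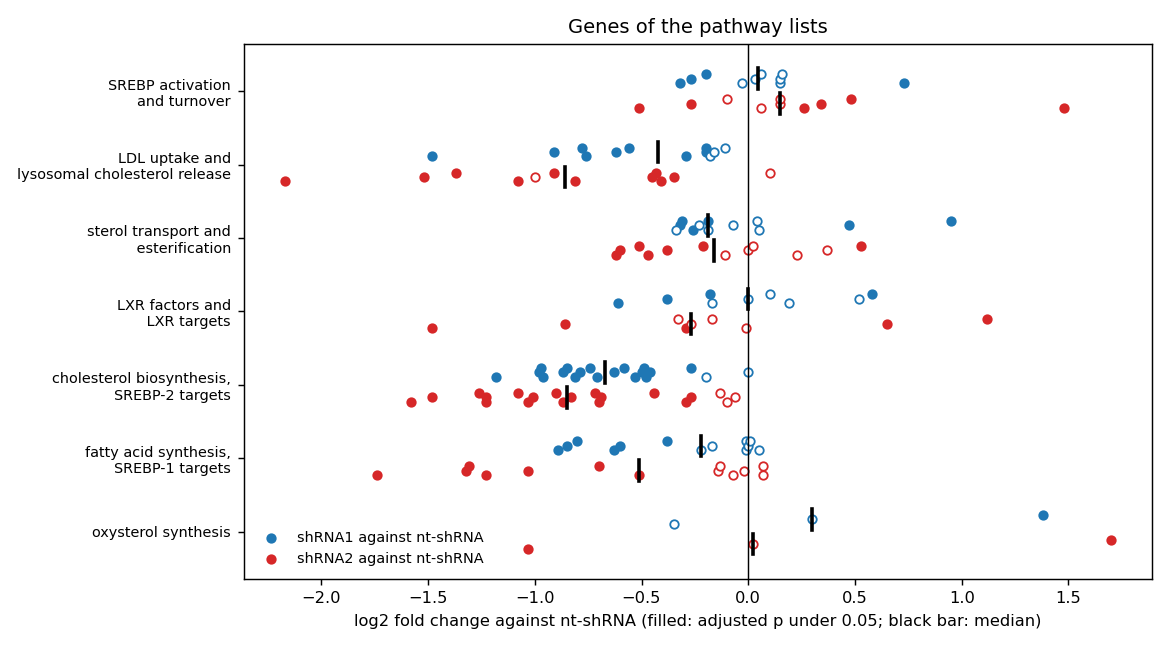
Log2 fold change against nt-shRNA (horizontal axis) of each tested gene of the 7 pathway lists, with shRNA1 in blue and shRNA2 in red, filled for an adjusted p under 0.05, and a black bar at each list's median. Medians of the cholesterol synthesis list lie at -0.67 and -0.85 and those of the LDL uptake list at -0.43 and -0.86, while the list of SREBP activation and turnover has medians of 0.04 and 0.15.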

How the data were processed

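The authors aligned paired reads of the 8 libraries to mm10 (GRCm38) with STAR, end to end, and counted fragments on exons of GENCODE M24 with featureCounts 1.6.2, without a strand option. The deposited table holds raw counts for 55385 genes, 55144 of which were matched to symbols through GENCODE M21, and no per-sample column was left out. Gene counts cannot separate transcripts, and overlapping genes are uncertain.

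Here the counts were filtered (filterByExpr, minimum count 10, 17445 genes), normalized by TMM and tested with edgeR 4.0.16 (glmQLFit and glmQLFTest, R 4.3.3) in a fit of all libraries with a coefficient per group. The study used DESeq2, which was tried as an alternative (1.42.0). Standard errors and 95% intervals came from the F statistic, and p-values were adjusted by Benjamini-Hochberg over all tested genes. A permutation of 3 against 2 libraries has 10 arrangements and a smallest one-sided exact p of 0.1, so no such test is given. The fit had a biological coefficient of variation of 0.0638. Depth ran from 19569525 to 29871048 counts, and 3 counts, the floor, are 0.100 to 0.153 CPM. On counts simulated for shRNA2 against nt-shRNA (17045 genes), 170 of 195 changed genes (log2 change 1) were recovered and 3.95% of calls were false. The simulation used a single dispersion for all genes, no replicate effect and few changed genes. It therefore checks the code and does not give the error rate in these data. Within groups, libraries differed by chi-square statistics per gene of 3.01 to 11.8, so none repeats another. The labels name the replicates as biological, and p-values measure the spread between these libraries.

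The 8 genes, the 7 pathway lists and the markers were chosen with earlier results of these data known, and support nothing independently. The list genes named by rule are, in each list, the 3 of smallest adjusted p (shRNA2) and the gene lying furthest opposite to the median, plus *Nr1h2*, *Nr1h3* and *Abcg1*. The remaining fatty acid genes are named besides this rule. Some genes under this rule are not reported here. For each of the 8 genes, the 2 nearest in pattern are named. *Spring1* was not matched by symbol. Alternatives were DESeq2, edgeR with its size factors, scaling to library size without TMM, testing unfiltered counts, a minimum of 10 counts in each library, fitting just the compared groups, a replicate block, leaving out each library, and, added after the data were seen, GC content offsets with and without the block. Python 3.11.15, pandas 2.3.3 and matplotlib 3.10.9 made tables and figures. Promoter sequences are RefSeq's, GRCm38.p6.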

Additional observations from a re-analysis of the deposited data

Results flagged for a closer look

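The hairpins differed from each other by the direct test of shRNA2 against shRNA1 (edgeR, adjusted over all tested genes) for 6 of the 8 genes. The share of all tested genes called there was 35.6%. In all 6 the libraries of the groups did not overlap, which held for 47.8% of all tested genes. *Insig1* was lower with shRNA2, by a log2 fold change of -0.58 (adjusted p = 7.2e-06). *Mylip* was lower by -0.45 (adjusted p = 3.5e-04), with the shRNA1 libraries at the level of the controls. *Srebf2* was lower by -0.36 (adjusted p = 9.3e-04). *Srebf1* was lower by -0.30 (adjusted p = 0.00342). *Stard4* was lower by -0.25 (adjusted p = 0.00314). *Scap* was higher, by 0.36 (adjusted p = 0.00175). All 6 calls held in 17 of 17 alternatives, with a highest adjusted p of 0.0294, for *Srebf1*.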

How the results depend on the processing

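Of 408 alternative values for the 8 genes, 394 kept their direction and their side of the threshold, 10 passed it anew, 4 reversed, and none was lost. With shRNA1, *Scap* was called with library size alone (0.32), a minimum of 10 counts in each library (0.24), a fit of just the compared groups (0.23), GC content offsets (0.34) and these with the replicate block (0.38), and ranged from 0.14 to 0.28 with a library left out. *Insig2* was called with library size alone with shRNA1 (0.23) and shRNA2 (0.26), and with the replicate block with shRNA2 (0.22), and ranged there from 0.16 to 0.19 with a library left out. *Mylip* with shRNA1 was 0.09 with library size alone and 0.01 with at least 10 counts in every library, and ranged from -0.05 to 0.02 with a library left out. *Insig2* between the hairpins ranged from -0.01 to 0.12.

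Reversals among the list genes named by rule were of values near 0, and only *Nr1h2* with GC offsets was called. With shRNA1, *Nr1h2* was -0.0027 without the filter and -0.04 with the replicate block (left-out libraries -0.08 to 0.07), *Hsd17b7* -0.0039 without the filter, -0.06 with GC content offsets and -0.05 with these and the block (-0.10 to 0.11), and *Gpam* -0.0016 and -0.01 with the same offsets (-0.03 to 0.05). With shRNA2, *Nr1h2* was 0.08 with library size alone, 0.02 with at least 10 counts and 0.20 with GC offsets, with or without the block (-0.03 to 0.02), *Hsd17b7* 0.03 with library size alone (-0.16 to 0.05), and *Cyp27a1* -0.0023 without the filter and -0.02 with the block (-0.04 to 0.09). Between the hairpins *Nr1h2* was 0.06 with GC offsets, with or without the block (-0.08 to 0.07). The causes were not tested.

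Genes called with shRNA1 numbered 5388, and from 2948 (without nt-shRNA replicate 1) and 3579 (without nt-shRNA replicate 2) to 5926 with a library left out. The number of the 8 genes called stayed at 5 to 7, 7 to 8 and 6 in the 3 comparisons. In the main fit 30.9%, 55.9% and 35.6% of all tested genes were called in these comparisons. Library size alone shifted the median of all genes by 0.114 and 0.0888 and the share of calls that were higher from 44.7% to 70.5% (shRNA1) and from 48.7% to 58.9% (shRNA2). Same-numbered libraries correlated between -0.0259 and 0.0742, so they share a number and no shown pairing, although 3 of 3 shRNA1 libraries correlated best with their own number in shRNA2. With the replicate block 6018, 10034 and 6518 genes were called, and 5, 8 and 6 of the 8. Depth limits the rare genes, such as *Nr1h3* and *Cyp7b1*, most.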
